A study of Mus musculus with 16 samples.

Results

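The actins and the noncoding neighbors of *Actc1* were followed in quadriceps muscle of wild-type and *Mtm1* knockout mice, with and without tamoxifen. The set holds 7 gene symbols, the actins *Acta1*, *Actc1*, *Acta2*, *Actb* and *Actg1* and the noncoding genes *C130080G10Rik* and *A530058N18Rik*, which match 8 of the 41388 genes counted. The symbols were chosen by name with earlier results of KO against WT in view, so the values and calls of that comparison are given below as a description without p-values. Deposited read counts per gene from bulk RNA-seq were used for tests, and the deposited RPKM (reads scaled to gene length and library size) for levels of different genes.

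All mice were on the C57BL/6 background and were sampled at postnatal day 36. The WT libraries came from wild-type mice without drug, and the WT_TAM libraries from wild-type mice fed 40 mg/kg tamoxifen in the chow, a treatment that ran from day 21. The KO libraries came from *Mtm1* -/- mice without drug, a line in which exon 4 of *Mtm1* is deleted in every cell, and the KO_TAM libraries from such mice on the same tamoxifen diet. Each group has 4 libraries, numbered 1 to 4 for WT, 5 to 8 for WT_TAM, 9 to 12 for KO and 13 to 16 for KO_TAM, and the 14 libraries the study used, without WT replicate 1 and KO replicate 12, are the main set here.

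Actins are the proteins of thin filaments and of the cytoskeleton. *Acta1* encodes skeletal muscle actin, *Actc1* cardiac actin, which skeletal muscle makes mainly during development and regeneration, and *Acta2* the actin of smooth muscle. *Actb* and *Actg1* encode the cytoplasmic actins of most cells. In muscle, actin genes are known targets of serum response factor, which binds CArG boxes and is switched on through its coactivators of the MRTF family when the pool of free actin monomers falls.

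Libraries held 25116179 to 29847222 counts. The deleted gene, *Mtm1*, had 282 to 459 counts in the WT_TAM libraries and in WT replicates 2 to 4, and 53 to 97 in all KO and KO_TAM libraries. Only 74 were in the library labelled WT replicate 1, within the range of the knockout libraries, so its values go with a label that *Mtm1* contradicts and are given apart. Skeletal muscle markers (*Ckm*, *Myh4*, *Myh1*, *Ttn*, *Neb*, *Mb* and *Pvalb*) summed to 49323 to 131351 CPM (counts scaled to the same library total) in the main set, whereas 5 heart markers (*Myh6*, *Nppa*, *Nppb*, *Tnni3* and *Myl7*) summed to 0.858 to 3.84, with *Nppa*, *Nppb* and *Myl7* at 0 in 10, 12 and 13 of the 14 libraries. Normalized counts below are counts scaled to a common library size with TMM, a scaling that keeps most genes level between libraries. In these, the library labelled WT replicate 1 was above all knockout libraries in *Acta1*, *Actc1*, *Acta2*, *C130080G10Rik* and *A530058N18Rik*. In *Actb* and *Actg1* it was within the range of the knockout libraries. Scaling by library size alone moved the median over all genes, on the log2 scale, from 0.02 to 0.33 in KO against WT and from -0.01 to 0.27 in KO_TAM against WT_TAM.

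*Actc1* and its neighbors lie together on chromosome 2. In the GRCm38 annotation *Actc1* spans chr2:114047282-114053548 on the minus strand. *C130080G10Rik*, annotated as antisense, spans chr2:114054335-114064868 on the plus strand, and 786 bases separate the annotated starts of the 2 genes, which face away from each other. *A530058N18Rik*, annotated as a processed transcript, spans chr2:114013563-114068324 on the plus strand, starts 40 kb from the *Actc1* start, and holds the whole of *Actc1* inside an intron, on the opposite strand. Exons of *Actc1* share 0 bases with exons of either neighbor. The neighbors share 1001 exon bases with each other, 38.7% of the exon bases of *C130080G10Rik* and 50.3% of those of *A530058N18Rik*, so reads in these exons cannot be assigned to either gene alone. How reads were assigned there, and whether strand was used, is not given in the sources used here.

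**Figure D1:**
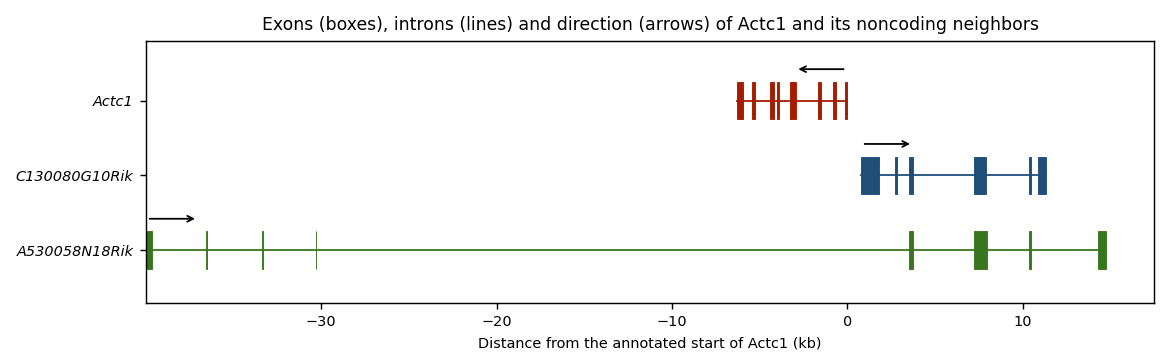
Exons (boxes) and introns (lines) of *Actc1*, *C130080G10Rik* and *A530058N18Rik* against the distance in kb from the annotated *Actc1* start, with arrows for the direction of transcription. *C130080G10Rik* starts 786 bases from *Actc1* in the opposite direction, and *A530058N18Rik* starts 40 kb away and runs past both.

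The promoters of the 3 genes are shown because the results turn on whether they change together. Each is 250 bases before to 50 bases after the RefSeq start (GRCm38.p6), 5′ to 3′ on the strand of the gene, with capitals for matches to any of 6 motifs searched on both strands: the CArG box, the E box CANNTG, the MCAT element CATTCC, the TATA motif TATAAA, the MEF2 site and the estrogen response element. RefSeq starts differ from the annotated starts above.
*Actc1*, chr2:114052826-114053125, minus strand: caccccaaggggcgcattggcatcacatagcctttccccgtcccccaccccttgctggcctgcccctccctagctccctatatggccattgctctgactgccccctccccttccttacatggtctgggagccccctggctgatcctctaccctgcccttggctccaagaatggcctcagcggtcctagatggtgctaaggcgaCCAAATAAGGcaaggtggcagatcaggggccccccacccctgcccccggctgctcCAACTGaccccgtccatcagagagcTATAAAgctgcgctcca
*C130080G10Rik*, chr2:114054146-114054445, plus strand: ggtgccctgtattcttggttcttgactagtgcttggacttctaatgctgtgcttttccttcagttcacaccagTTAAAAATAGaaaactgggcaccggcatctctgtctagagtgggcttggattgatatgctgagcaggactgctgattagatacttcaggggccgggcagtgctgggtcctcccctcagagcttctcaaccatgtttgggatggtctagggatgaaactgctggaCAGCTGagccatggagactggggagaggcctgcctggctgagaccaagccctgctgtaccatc
*A530058N18Rik*, chr2:114013315-114013614, plus strand: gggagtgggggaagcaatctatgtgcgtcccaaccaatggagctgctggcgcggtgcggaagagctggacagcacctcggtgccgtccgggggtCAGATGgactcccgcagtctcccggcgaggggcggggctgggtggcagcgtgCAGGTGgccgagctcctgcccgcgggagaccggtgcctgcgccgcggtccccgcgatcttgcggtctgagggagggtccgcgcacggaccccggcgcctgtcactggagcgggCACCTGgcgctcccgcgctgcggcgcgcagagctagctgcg

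The *Actc1* window held a CArG box at bases 204 to 213, an E box at bases 259 to 264 and a TATA motif at bases 284 to 289, counted from 1 at its 5′ end. Counted from the RefSeq start, their first bases are at -47, 8 and 33, so the E box and the TATA motif lie after that start. The *C130080G10Rik* window held a MEF2 site at bases 74 to 83 and an E box at bases 238 to 243. In the *A530058N18Rik* window the capitals are 3 E boxes, and 73.3% of its bases are G or C, against 62.7% for *Actc1* and 52.7% for *C130080G10Rik*. No motif match overlapped another. Of 32851 promoters of the same length, 1.63% held a CArG box, 3.19% a MEF2 site, 13.6% a TATA motif and 72.3% an E box. An estrogen response element was matched in 0.07% of all promoters and in none of the 6 windows found for the members. Of the other actins with a window, *Acta1* held a CArG box, 2 E boxes, an MCAT element and a TATA motif. *Actg1* held a CArG box and an E box, and *Acta2* 3 E boxes and an MCAT element. The CArG box was matched only in its strict form, with A or T at each base between its CC and GG ends. Variants with another base there were not counted, so a window without a match can still hold one.

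The actins differ enough in sequence for reads to be told apart in most places, as the first 60 coding bases of each (GRCm38 transcripts) show. Capitals in *Actc1* and *Acta2* mark bases that differ from *Acta1*, and capitals in *Actg1* mark bases that differ from *Actb*.
*Acta1*: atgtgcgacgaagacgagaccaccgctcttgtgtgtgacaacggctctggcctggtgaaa
*Actc1*: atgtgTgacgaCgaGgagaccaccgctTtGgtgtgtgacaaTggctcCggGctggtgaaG
*Acta2*: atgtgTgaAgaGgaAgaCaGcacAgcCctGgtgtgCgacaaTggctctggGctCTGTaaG
*Actb*: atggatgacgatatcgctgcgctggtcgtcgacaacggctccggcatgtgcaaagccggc
*Actg1*: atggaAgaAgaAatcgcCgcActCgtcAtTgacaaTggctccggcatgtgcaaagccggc

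Over all 1131 coding bases, *Actc1* was 86.3% identical to *Acta1* and *Acta2* was 85.4% identical to it. *Actg1* was 88.6% identical to *Actb* over 1125 bases. Of all 50-base stretches of their transcripts, 0% of *Actc1*, 0.326% of *Acta2*, 2.02% of *Acta1* and 9.12% of *Actb* also occurred in a transcript of another gene. The share was 37.4% for *Actg1*, mostly in genes such as *Gm12715*, *Gm8399* and *Actg-ps1*, so the counts of *Actg1* are the least certain of the 5 actins. Among the neighbors it was 36.2% for *C130080G10Rik*, all in *A530058N18Rik*, and 69% for *A530058N18Rik*.

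The 5 actins together stood at 31623 ± 3988 RPKM in WT (SD, n = 3), 30968 ± 1920 in WT_TAM (n = 4), 22619 ± 2443 in KO (n = 3) and 23226 ± 3666 in KO_TAM (n = 4). *Acta1* made up most of this sum per length, 87.0% ± 3.24 in WT, 92.9% ± 1.03 in WT_TAM, 95.5% ± 0.530 in KO and 96.4% ± 1.82 in KO_TAM. *Actc1* was next, with 12.04% ± 3.40 in WT, 6.27% ± 0.894 in WT_TAM, 2.89% ± 0.825 in KO and 2.09% ± 1.84 in KO_TAM. In the untreated knockout, *Actb* took 1.01% ± 0.325, *Actg1* 0.353% ± 0.0840 and *Acta2* 0.294% ± 0.0612 of the sum. Quadriceps thus held actin messages in the order *Acta1*, *Actc1*, *Actb*, and then *Acta2* and *Actg1*. The RPKM of these last genes overlapped in WT_TAM, KO and KO_TAM, and in WT that of *Acta2* (77.3 to 83.1) was above that of *Actg1* (66.8 to 75.0). The exception to this order was KO_TAM replicate 15, where *Actc1*, at 69.8 RPKM, was below *Actb* (196), *Actg1* (78.4) and *Acta2* (74.9). Per length the neighbors were far lower, with means of 15.2 RPKM for *C130080G10Rik* and 2.77 RPKM for *A530058N18Rik* in WT.

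**Figure D2:**
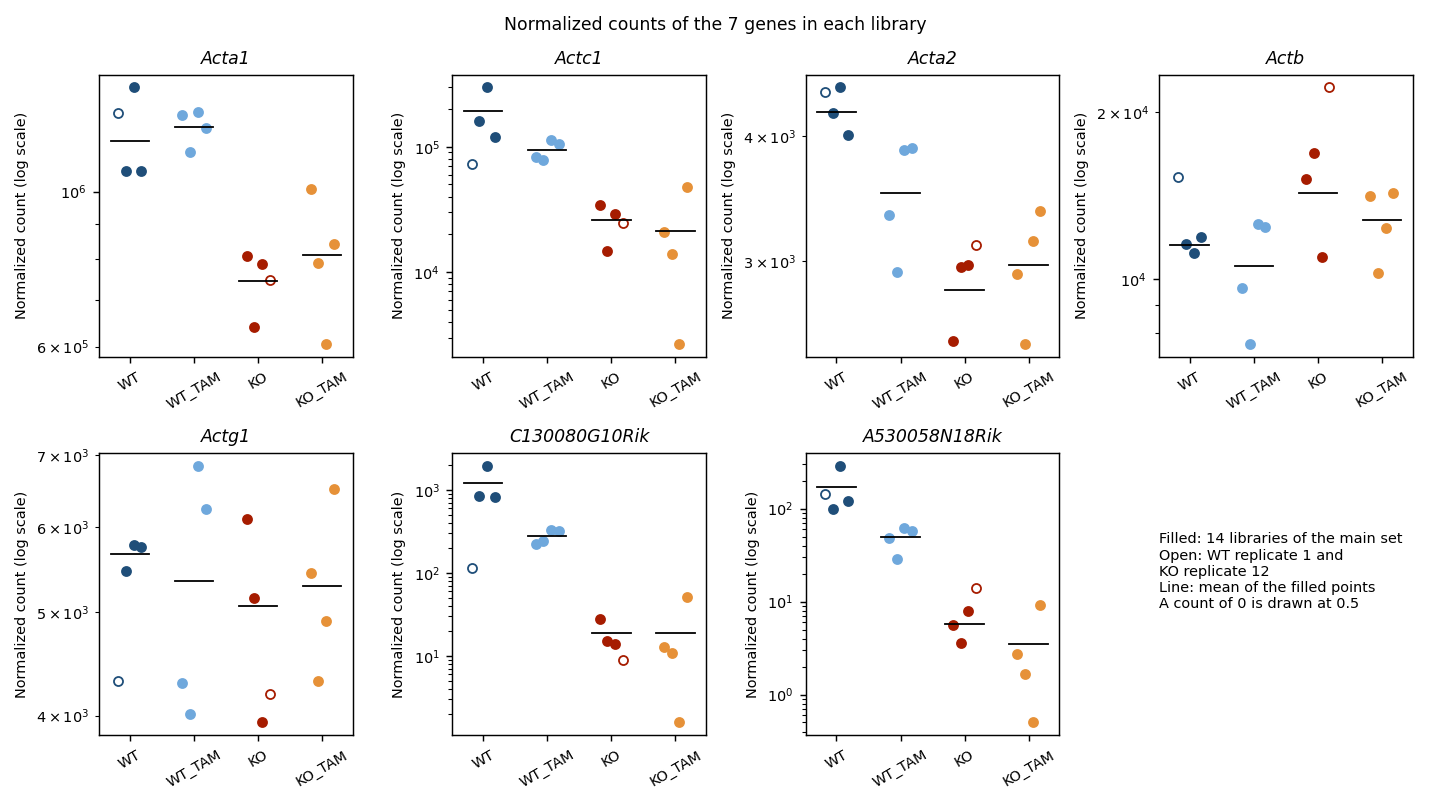
Normalized count (log scale) of each of the 7 genes in each library by group, with filled points for the 14 libraries of the main set, open points for WT replicate 1 and KO replicate 12, and a line at the mean of the filled points. Filled points of *Actc1*, *C130080G10Rik* and *A530058N18Rik* do not overlap between WT, WT_TAM and the knockout groups, while *Actb* and *Actg1* overlap between genotypes. Those of *Acta2* do not overlap between WT and WT_TAM either, and the share of all genes without overlap was not computed.

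*Acta1*, at chr8:123891769-123894751 on the minus strand, had lower values in the libraries of both knockout groups. Its normalized counts were 1069290, 1409795 and 1070298 in WT replicates 2 to 4 and 1287937, 1138313, 1298056 and 1232315 in WT_TAM. They were 809614, 639551 and 787542 in KO replicates 9 to 11 and 1008754, 791352, 604642 and 840834 in KO_TAM. The highest KO_TAM library, replicate 13, was below the lowest WT_TAM library, and the KO and WT libraries did not overlap either. For neither comparison was the share of all genes without overlap computed. The log2 fold change was -0.63 (SE 0.19) in KO_TAM against WT_TAM, and edgeR's quasi-likelihood model, adjusted by Benjamini-Hochberg over all genes tested, gave an adjusted p of 0.0401, which missed the threshold of 0.01 used for calls here. DESeq2 called it, with an adjusted p of 0.00113. In KO against WT the value was -0.66 (SE 0.21). Without drug or with it, the sum of the 7 skeletal muscle markers moved with *Acta1*, from 91613 to 131351 CPM in WT and 98191 to 101205 in WT_TAM to 54326 to 66832 in KO and 49323 to 65834 in KO_TAM, and their part in the lower *Acta1* was not tested. *Ckm* fell by 0.87 and *Myh4* by 1.24 on the log2 scale in KO_TAM against WT_TAM, whereas *Mb* stood at 1.00 and *Myh1* at 0.78 (neither called). In such bulk samples fewer muscle fibers and less RNA per fiber cannot be told apart.

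*Actc1* had the largest fold changes of the 5 actins. Its normalized counts were 160506, 297645 and 119064 in WT replicates 2 to 4 and 82320, 78214, 112362 and 106025 in WT_TAM. They were 34246, 14788 and 29217 in KO replicates 9 to 11 and 20749, 13861, 2657 and 47629 in KO_TAM. KO_TAM replicate 15 had the lowest and replicate 16 the highest value of the knockout groups, and no library of KO_TAM reached the WT_TAM range. The library labelled WT replicate 1 had 73308, below the other WT libraries, and KO replicate 12 had 24801. The log2 fold change was -2.88 (SE 0.39) in KO against WT. The call there, which only describes the comparison that selected the members, was lost without KO replicate 10 (-2.59) or 11 (-2.97). In KO_TAM against WT_TAM it was -2.18 (SE 0.60), with an adjusted p of 0.0307 in the same edgeR model, which was not called at 0.01. It was called without KO_TAM replicate 16, at a log2 fold change of -2.94 (adjusted p = 0.00765), by DESeq2 (adjusted p = 0.00762) and without the filter on low counts (adjusted p = 0.00617, edgeR). Tamoxifen in wild-type mice went with a log2 fold change of -1.02 (SE 0.27), and the WT and WT_TAM libraries of the main set did not overlap. How many of all genes do not overlap was not computed for this comparison or for KO_TAM against WT_TAM. Without WT replicate 3 the log2 fold change in WT_TAM against WT was -0.59. The adjusted p was 0.185 in the edgeR model and 0.00553 in DESeq2, from WT libraries that took part in choosing the members. The fold change of the knockouts with tamoxifen, KO_TAM against KO, was -0.31 (SE 0.65) on the log2 scale, with overlapping libraries (adjusted p = 0.952, edgeR).

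*C130080G10Rik*, which starts beside *Actc1*, had, with *A530058N18Rik*, the largest fold changes of the 7 genes in KO_TAM against WT_TAM. Its normalized counts were 842, 1959 and 810 in WT replicates 2 to 4 and 223, 241, 330 and 322 in WT_TAM. They were 27.7, 15.3 and 14.1 in KO replicates 9 to 11 and 12.9, 10.8, 1.58 and 50.6 in KO_TAM, from raw counts of 14, 13, 2 and 55. The 4 groups thus fell into 3 ranges without overlap, WT, WT_TAM and the 2 knockout groups together. How many of all genes do so was not computed, and KO against WT took part in choosing the members. KO_TAM replicates 15 and 16, the extremes of *Actc1*, were also the extremes of this gene. KO_TAM had a 15.2-fold lower level than WT_TAM, a log2 fold change of -3.92 (SE 0.59). The adjusted p was 0.00157 in the edgeR model. This p-value is not independent of the filter on low counts, which the gene passed there only through the WT_TAM libraries. The log2 fold change was -5.07 without KO_TAM replicate 16. In KO against WT it was -5.97 (SE 0.44). In WT_TAM against WT it was -2.10 (SE 0.29), with an adjusted p of 0.0142 in the edgeR model (not called at 0.01). The adjusted p was 2.26e-10 in DESeq2 and 0.000406 in the edgeR model without the filter on low counts. The WT libraries took part in choosing the members, which can bias these p-values toward a fall. With WT replicate 1, which had 115 normalized counts, the WT_TAM against WT value was -1.73 (adjusted p = 0.451, edgeR).

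*A530058N18Rik*, the gene that spans *Actc1*, was the scarcest member. Its normalized counts were 98.6, 289 and 121 in WT replicates 2 to 4 and 48.6, 29.0, 61.4 and 57.4 in WT_TAM. They were 5.53, 3.59 and 7.92 in KO replicates 9 to 11 and 2.76, 1.66, 0 and 9.20 in KO_TAM, from raw counts of 3, 2, 0 and 10. Each WT library was above each WT_TAM library, and each of these above the knockout libraries. Here too, the share of all genes with such an order was not computed. A count of 0 allows up to 3 counts, so KO_TAM replicate 15 is not distinguishable from replicates 13 and 14. Against WT_TAM, the log2 fold change in KO_TAM was -3.87 (SE 0.65), with an adjusted p of 0.00299 in the edgeR model. This p-value too is not independent of the filter on low counts, which the gene passed only through the WT_TAM libraries. The log2 fold change was -5.01 without KO_TAM replicate 16. Without KO_TAM replicate 13 or 14 the call was lost, at -3.79 (adjusted p = 0.0116) and -3.65 (adjusted p = 0.0110). In KO against WT the log2 fold change was -4.86 (SE 0.53), and -4.26 without WT replicate 3. In WT_TAM against WT it was -1.78 (SE 0.39), with an adjusted p of 0.0970 in the edgeR model and of 0.000982 in DESeq2. These p-values again rest on WT libraries that took part in choosing the members. In KO_TAM against KO its counts were too low to be tested. The library labelled WT replicate 1 had 144 and KO replicate 12 had 13.8. The table holds a second gene of this symbol (ENSMUSG00000087694), with 2 counts in WT replicate 3 and 0 in all other libraries, and it was not tested.

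*Acta2*, at chr19:34241090-34255590, had 4219, 4478 and 4009 normalized counts in WT replicates 2 to 4 and 3337, 2929, 3875 and 3893 in WT_TAM. It had 2495, 2963 and 2973 in KO replicates 9 to 11 and 2912, 2479, 3142 and 3366 in KO_TAM. The WT libraries were above all others, and the 3 remaining groups overlapped. How many of all genes show this was not computed. The log2 fold change was -0.59 (SE 0.13) in KO against WT and -0.28 (SE 0.12) in WT_TAM against WT, with an adjusted p of 0.466 in the edgeR model. In KO_TAM against WT_TAM it was -0.26 (SE 0.13), with an adjusted p of 0.200, and 0.02 when scaled by library size alone. The 9 markers of smooth muscle and pericytes (*Myh11*, *Tagln*, *Cnn1*, *Smtn*, *Rgs5*, *Pdgfrb*, *Cspg4*, *Mcam* and *Notch3*) summed to 661 to 817 CPM in WT, 537 to 668 in WT_TAM, 621 to 812 in KO and 553 to 706 in KO_TAM, and their part in the level of *Acta2* was not tested.

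The cytoplasmic actins overlapped between genotypes. *Actb*, at chr5:142903115-142906754, had 11571, 11150 and 11939 normalized counts in WT replicates 2 to 4 and 9638, 7647, 12604 and 12444 in WT_TAM. It had 15152, 16879 and 10966 in KO replicates 9 to 11 and 14147, 10275, 12375 and 14311 in KO_TAM. A single KO library, replicate 11, lay below the WT range, and the other 2 lay above it. *Actb* in KO_TAM against WT_TAM had a log2 fold change of 0.25 (SE 0.18), with an adjusted p of 0.359 in the edgeR model, and 0.53 (adjusted p = 0.0333) when scaled by library size alone. *Actg1*, at chr11:120345690-120348542, had 5464, 5777 and 5749 normalized counts in WT replicates 2 to 4 and 4292, 4014, 6847 and 6233 in WT_TAM. It had 6105, 5150 and 3942 in KO replicates 9 to 11 and 5432, 4313, 4907 and 6509 in KO_TAM. Its log2 fold change in KO_TAM against WT_TAM was -0.04 (SE 0.19, adjusted p = 0.914), and 0.24 when scaled by library size alone. With tamoxifen in wild-type mice the values were -0.14 (SE 0.18) for *Actb* and -0.09 (SE 0.19) for *Actg1*, and the WT_TAM libraries spread more widely than the WT libraries in both genes.

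Of the 7 genes, 3 were called in KO against WT (*Actc1*, *C130080G10Rik* and *A530058N18Rik*), the comparison on which the members were selected, where 3.6% of all 14740 genes tested were called. In KO_TAM against WT_TAM, which shares no library with it, 2 of the 7 were called lower, *C130080G10Rik* and *A530058N18Rik*, and 0 higher, where 6.72% of 14563 genes were called. *C130080G10Rik* and *A530058N18Rik* passed the filter on low counts there only with the WT_TAM libraries, in which they were high. Their calls are therefore not independent of the filter. In KO against WT the same holds for *A530058N18Rik*, which passed through the WT libraries. In WT_TAM against WT, where 0.131% of 14544 genes were called, 0 of the 7 were called by the edgeR model, 4 had an unadjusted p under 0.05, as had 1549 of all genes, and DESeq2 called 3, *Actc1*, *C130080G10Rik* and *A530058N18Rik*, among 214 of all genes. In KO_TAM against KO, edgeR called 0 of 15062 genes (0%), DESeq2 called 72, and 1137 had an unadjusted p under 0.05. None of the 6 members tested there was among these. WT_TAM against WT shares the WT libraries with KO against WT and the WT_TAM libraries with KO_TAM against WT_TAM, so the values in these comparisons are not independent of each other. Members chosen as lower in KO than in WT can be high in these WT libraries by selection. The p-values of WT_TAM against WT for them can thus be biased toward lower values with tamoxifen.

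**Figure D3:**
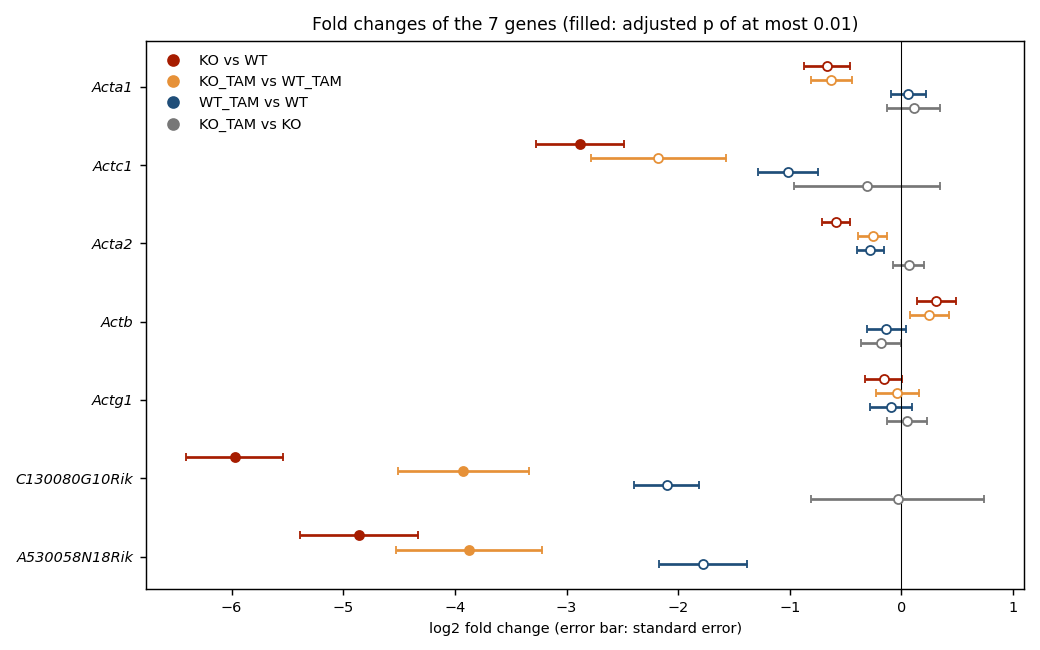
Log2 fold change of each of the 7 genes (points, with the standard error as bar) in 4 comparisons, filled where the adjusted p was at most 0.01 in the edgeR model. Filled points of KO against WT, on which the members were selected, are a description only. *C130080G10Rik* runs from -5.97 in KO against WT to -3.92 in KO_TAM against WT_TAM, -2.10 in WT_TAM against WT and -0.03 in KO_TAM against KO, where *A530058N18Rik* was not tested.

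Whether tamoxifen acted differently in knockout and wild-type mice was tested as the interaction of genotype and drug over the 14 libraries. For *C130080G10Rik*, the difference between the log2 fold changes with tamoxifen in knockout and in wild-type mice was 2.07 (SE 0.82), with an unadjusted p of 0.0226 and an adjusted p of 0.999794 in the edgeR model. It was 0.91 without KO_TAM replicate 16. For *Actc1* it was 0.72 (SE 0.83) and for *A530058N18Rik* 1.00 (SE 0.97). It ranged from -0.04 to 0.35 for the other 4 actins. The test called 0 of 15556 genes (0%), DESeq2 called 11, and 664 genes had an unadjusted p under 0.05. The interaction includes the KO and WT libraries on which the members were selected. For members chosen as lower in KO than in WT, its values and p-values can thus be biased toward a positive difference.

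The noncoding neighbors followed *Actc1* from library to library. Over the 7 libraries of wild-type mice, the log2 CPM of *C130080G10Rik* correlated with that of *Actc1* at Pearson's r = 0.943 (exact permutation p = 0.00119) and a Spearman rank coefficient of 0.964 (exact permutation p = 0.00278). For *A530058N18Rik* the values were r = 0.940 (exact permutation p = 0.00476) and a Spearman coefficient of 0.964 (exact permutation p = 0.00278). Over the 7 libraries of knockout mice, r was 0.949 for *C130080G10Rik* (exact permutation p = 0.00278, Spearman coefficient 0.893, exact permutation p = 0.0123). For *A530058N18Rik* r was 0.938 (exact permutation p = 0.00397, Spearman coefficient 0.929, exact permutation p = 0.00675). Adjusted over these 8 tests, all p-values lay between 0.00556 and 0.0123. Without the 2 libraries farthest from the median of *Actc1*, r was 0.864 for *C130080G10Rik* in wild-type mice (WT replicate 3 and WT_TAM replicate 6 left out). In the same 5 libraries it was 0.743 for *A530058N18Rik* (exact permutation p = 0.133). In knockout mice without KO_TAM replicates 15 and 16 it was 0.715 and 0.817 (exact permutation p = 0.117 for each), so these 3 relations passed 0.05 only with the libraries left out here. Leaving out any single library kept each r at 0.836 or above.

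WT and WT_TAM did not overlap in any of the 3 genes, so part of r in wild-type mice is the difference between these groups. *Acta2* did not overlap there either, and the share of all genes without overlap was not computed. The mean of each group was therefore subtracted and libraries were permuted within their groups, a test added after the data were seen. Over the 14 libraries r was then 0.948 for *C130080G10Rik* (exact permutation p = 0.00106, 0.00636 adjusted over 6 tests) and 0.876 for *A530058N18Rik* (exact permutation p = 0.00222, 0.00666 adjusted). Within the knockout groups it was 0.948 and 0.940 (exact permutation p = 0.0278 for each, 0.0417 adjusted). Within the wild-type groups it was 0.959 for *C130080G10Rik* (exact permutation p = 0.0417, 0.05 adjusted) and 0.856 for *A530058N18Rik* (exact permutation p = 0.0972). From 7 libraries in 2 groups this test cannot go below 0.0139. By rank, *C130080G10Rik* ordered the libraries exactly as *Actc1* did in WT and KO_TAM, and *A530058N18Rik* did so in WT_TAM, while in KO neither gene did. In KO_TAM the counts of *A530058N18Rik* were too low to order all libraries. The order of *C130080G10Rik* there rests on 14 against 13 counts in replicates 13 and 14. In WT it rests on 842 against 810 normalized counts in replicates 2 and 4. *Acta1* kept the order of *Actc1* in KO alone.

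**Figure D4:**
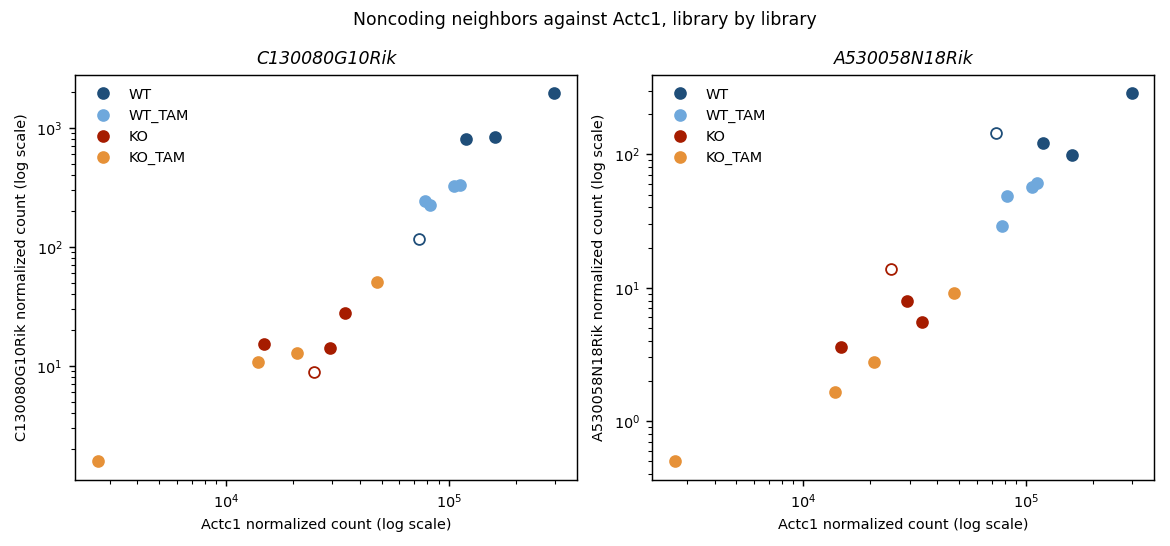
Normalized count of *C130080G10Rik* (left) and *A530058N18Rik* (right) against that of *Actc1* in each library (both axes log scale), colored by group, with open points for WT replicate 1 and KO replicate 12 and the count of 0 drawn at 0.5. The points rise together from KO_TAM replicate 15 at the lower left to WT replicate 3 at the upper right, and WT replicate 1 stands off this line in opposite directions, low for *C130080G10Rik* and high for *A530058N18Rik*.

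The mean ratio of each neighbor to *Actc1* within a library also lay apart between WT, WT_TAM and the knockout groups, though no test held after adjustment. With these group sizes no ratio test could reach an adjusted p under 0.05. *C130080G10Rik* had 5.25, 6.58 and 6.81 counts for every 1000 counts of *Actc1* in WT replicates 2 to 4 and 2.71, 3.08, 2.94 and 3.03 in WT_TAM. It had 0.808, 1.03 and 0.482 in KO replicates 9 to 11 and 0.620, 0.777, 0.594 and 1.06 in KO_TAM. The ratio varied least in WT_TAM and did not overlap between WT, WT_TAM and the knockout groups. The mean was 3.85-fold lower in KO_TAM (0.763 ± 0.215, SD, n = 4) than in WT_TAM (2.94 ± 0.165, n = 4), with a two-sided exact permutation p of 0.0286, the smallest that 4 against 4 libraries allow, and 0.0979 adjusted over 12 ratio tests. It was 2.11-fold lower in WT_TAM than in WT (6.21 ± 0.842, n = 3), with an exact permutation p of 0.0571, the smallest that 4 against 3 libraries allow. The WT libraries took part in choosing the members, so the ratio can be high in them by selection. Between KO_TAM and KO (0.774 ± 0.277, n = 3) the mean ratio differed by less than the spread between libraries (exact permutation p = 0.971). In KO_TAM replicate 15 the ratio rests on 2 counts of *C130080G10Rik* (exact 95% binomial interval 0.0719 to 2.15), an interval that covers counting error alone, as do all intervals and limits on counts here.

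*A530058N18Rik* had 0.615, 0.971 and 1.02 counts for every 1000 counts of *Actc1* in WT replicates 2 to 4 and 0.590, 0.370, 0.547 and 0.542 in WT_TAM. It had 0.162, 0.243 and 0.271 in KO replicates 9 to 11 and 0.133, 0.120, 0 and 0.193 in KO_TAM, where the 0 of replicate 15 allows up to 1.10 (exact 95% binomial interval). WT, WT_TAM and the knockout groups did not overlap in this ratio either. The mean was 4.60-fold lower in KO_TAM (0.111 ± 0.0808, SD, n = 4) than in WT_TAM (0.512 ± 0.0971, n = 4), and 1.70-fold lower in WT_TAM than in WT (0.868 ± 0.221, n = 3). The exact permutation p was 0.0286 for the former and 0.0571 for the latter (0.0979 adjusted for each). The latter rests on WT libraries that took part in choosing the members, which can bias it toward a fall. For the library labelled WT replicate 1 the ratio was 1.57 counts of *C130080G10Rik* for every 1000 of *Actc1* (interval 1.25 to 1.95), below all WT and WT_TAM libraries, and 1.96 of *A530058N18Rik* (interval 1.61 to 2.38), above all of them. KO replicate 12 had 0.359 and 0.558, below and above the other KO libraries.

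**Figure D5:**
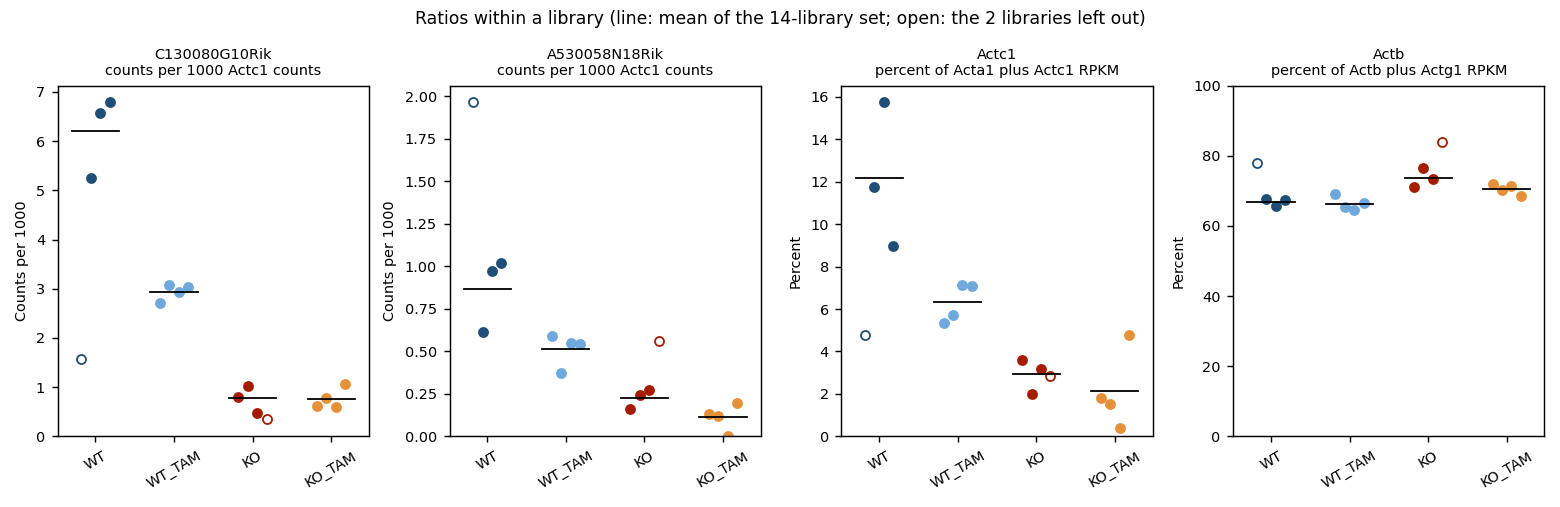
Ratios within each library by group: counts of *C130080G10Rik* and of *A530058N18Rik* for every 1000 counts of *Actc1*, *Actc1* as a percent of *Acta1* plus *Actc1* RPKM, and *Actb* as a percent of *Actb* plus *Actg1* RPKM (filled points and mean lines for the 14 libraries, open points for WT replicate 1 and KO replicate 12). The mean ratio of *C130080G10Rik* steps from 6.21 in WT to 2.94 in WT_TAM and to 0.774 and 0.763 in KO and KO_TAM.

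Within the sarcomeric pair, *Actc1* made up 11.7%, 15.8% and 8.97% of *Acta1* plus *Actc1* RPKM in WT replicates 2 to 4 and 5.36%, 5.74%, 7.12% and 7.08% in WT_TAM. Its share was 3.61%, 2.01% and 3.18% in KO replicates 9 to 11 and 1.79%, 1.53%, 0.388% and 4.78% in KO_TAM. WT, WT_TAM and the knockout groups again did not overlap. The mean was 2.98-fold lower in KO_TAM than in WT_TAM (exact permutation p = 0.0286, 0.0979 adjusted). It was 1.92-fold lower in WT_TAM than in WT (exact permutation p = 0.0571, 0.0979 adjusted), where WT libraries that took part in choosing the members were used again. Within the cytoplasmic pair, *Actb* made up 66.9% ± 1.09 in WT (SD, n = 3), 66.4% ± 1.92 in WT_TAM (n = 4), 73.7% ± 2.69 in KO (n = 3) and 70.6% ± 1.55 in KO_TAM (n = 4). The share was 4.22 percentage points higher in KO_TAM than in WT_TAM, with overlapping libraries (exact permutation p = 0.0571, 0.0979 adjusted). None of the 12 ratio tests had an adjusted p under 0.05. With smallest possible p-values of 0.0286 and 0.0571 none could have, so the adjusted values do not decide whether the ratios differ.

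Other genes around *Actc1* did not share its pattern in these tests. Of the annotated genes within 200 kb besides the members, *Aqr*, an RNA helicase of the spliceosome, had a log2 fold change of -0.28 (SE 0.14) and the zinc finger gene *Zfp770* of -0.02 (SE 0.14) in KO_TAM against WT_TAM. *Arhgap11a* stood at -0.15 (SE 0.28) and, like these genes, was not called in any of the 5 comparisons. The pseudogene *Gm21596* had 2 to 16 counts in the libraries of the main set and was not called where it was tested. *Gjd2*, a gap junction gene whose start lies beside that of *A530058N18Rik*, had 0 to 2 counts, and *Mir7002* had 0.

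Over the 14 libraries, the genes whose log2 CPM was most like that of *Actc1* among 15555 genes were *Mdga1* (r = 0.970), the aldo-keto reductase gene *Akr1b10* (r = 0.965), the ceramide synthase gene *Cers1* (r = 0.960), *C130080G10Rik* (r = 0.956) and *Sypl2* (r = 0.954), which encodes a membrane protein of the triad. *A530058N18Rik* ranked 10 (r = 0.948), *Acta1* ranked 121 (r = 0.878) and *Acta2* ranked 1130 (r = 0.703). For *Actg1* r was 0.327 and for *Actb* -0.286. The lowest values were -0.938 for *Zfp318* and -0.933 for *Mustn1*. With the mean of each group subtracted, the highest were *Dynll2*, a dynein light chain gene (r = 0.952), *C130080G10Rik* (r = 0.948), *Akr1b10* (r = 0.946), *Sucla2*, which encodes a subunit of succinyl-CoA synthetase (r = 0.923), and the muscle kelch gene *Klhl31* (r = 0.921). *A530058N18Rik* then ranked 12 and *Acta1* ranked 43. These values describe 14 libraries that share group differences and scaling.

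Among genes that load, cap and fold actin, 3 were called in KO_TAM against WT_TAM, where 6.72% of all genes were. In that comparison, 0 of the 19 genes of monomer handling and filament turnover were called, with a median log2 fold change of 0.21 against -0.01 over all genes. Among them *Tmsb10*, a thymosin that binds actin monomers, stood at 0.98 (adjusted p = 0.0148) and the profilin gene *Pfn2* at -0.44 (adjusted p = 0.0151) in the edgeR model. Both were called in KO against WT, *Tmsb10* at 0.93 (SE 0.17) and *Pfn2* at -0.78 (SE 0.14). None of 17 genes of actin folding and modification was called (median 0.12), nor any of 8 actin family genes outside the members (median 0.26). Of 17 thin filament caps and nucleators (median -0.21), the leiomodin gene *Lmod2* rose by 1.46 (SE 0.25) on the log2 scale, while the capping protein gene *Capza2* fell by 0.59 (SE 0.12) and the tropomodulin gene *Tmod4* fell by 0.47 (SE 0.10). *Capza2* was also lower in KO against WT, by a log2 fold change of -0.92 (SE 0.16).

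Genes of the serum response factor axis went both ways. Of 15 tested, 5 were called higher and 1 lower in KO_TAM against WT_TAM (median log2 fold change 0.56). *Srf* itself fell by 0.77 (SE 0.15), and its coactivator gene *Mkl1*, lower in KO against WT (-1.06, SE 0.17), stood at -0.71 (SE 0.22, not called). The LIM domain genes *Fhl1* and *Fhl2* rose by 1.84 (SE 0.13) and 2.33 (SE 0.24), the immediate early gene *Egr1* by 2.39 (SE 0.31), and the matricellular genes *Ctgf* and *Cyr61* by 1.52 (SE 0.19) and 0.99 (SE 0.20). In KO against WT *Ctgf* (2.20, SE 0.13), *Egr1* (1.82, SE 0.25) and *Fhl2* (1.81, SE 0.26) were called higher. *Actc1*, not called in KO_TAM against WT_TAM, stood lower there, as did *Srf* and *Mkl1*, while 5 genes of this list were called higher. The part of this axis in the level of *Actc1* was not tested.

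In both comparisons of knockout with wild type, the fold change of *Actc1* was opposite in sign to those of 12 of 13 other embryonic and cardiac-slow genes of the sarcomere. Of these 13, 7 were called higher and 0 lower in KO_TAM against WT_TAM, and their median log2 fold change was 2.03. The embryonic myosin gene *Myh3* rose by 3.35 (SE 0.45), the perinatal myosin gene *Myh8* by 1.83 (SE 0.34), the atrial light chain gene *Myl4* by 2.03 (SE 0.23) and the cardiac troponin gene *Tnnt2* by 2.15 (SE 0.25). The slow troponin gene *Tnni1*, the calcium pump gene *Atp2a2* and *Csrp3*, a LIM protein of the Z disc, rose by 2.81 (SE 0.56), 1.05 (SE 0.17) and 2.99 (SE 0.20). In KO against WT 4 of the 13 were called higher, *Myh3* (3.89, SE 0.44), *Myl4* (3.70, SE 0.20), *Myh8* (2.60, SE 0.18) and *Tnnt2* (1.86, SE 0.19). Of 7 genes of muscle precursors and regeneration, 4 were called higher in both comparisons, *Myh3* (a gene of both lists), *Myog*, *Ncam1* and *Chrng*. The last 3 stood at 1.40 (SE 0.28), 1.69 (SE 0.31) and 1.75 (SE 0.36) in KO_TAM against WT_TAM. The precursor gene *Pax7* went the other way, at -1.26 (SE 0.31) there and -1.39 (SE 0.28) in KO against WT. *Myf5* was also lower (-0.39 and -0.23) and *Myod1* higher (0.51 and 0.62), and none of *Pax7*, *Myf5* and *Myod1* was called. In WT_TAM against WT, KO_TAM against KO and the interaction, no gene of these lists was called, and in the first 2 of these *Actc1* had the sign of 8 and of 9 of the 13 sarcomere genes.

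Where 6.72% of all genes were called, 3 markers of other cells were. Of 15 markers of smooth muscle and pericytes, *Des* (0.90, SE 0.16), which muscle fibers also express, was called higher and *Abcc9* (-0.73, SE 0.14) lower in KO_TAM against WT_TAM. Among 8 fibroblast markers *Postn* was called higher (2.18, SE 0.26). No gene was called among 4 tested markers of heart muscle, 8 of endothelium, 5 of leukocytes, 7 of fat cells or 5 of red blood cells, whose median log2 fold changes were 0.12, -0.22, 0.64, -0.58 and -0.26. In KO against WT *Des* (0.98, SE 0.17) and *Postn* (1.43, SE 0.21) were called higher, and no other marker of these 7 cell types was.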

How the data were processed

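RNA of quadriceps from 16 mice in 4 groups was analysed from a deposited table of raw counts and a deposited table of RPKM, each with 41388 genes. Per the authors, reads were aligned to GRCm38 with STAR and counted on genes with HTSeq, giving counts without scaling, and the authors' RPKM are these counts scaled to gene length and library size. The submitters' processing notes name bcl2fastq 2.17, STAR 2.5.0c and Cufflinks 2.2.1. Counting mode, strand setting and gene lengths: not given in the sources used here. Each column mapped to 1 sample.

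Tests used edgeR 4.0.16 (quasi-likelihood, TMM, filterByExpr with a minimum count of 10 and a minimum total of 15) in R 4.3.3 on the 2 groups compared, over the 14 libraries of the study, and on all 4 groups for the interaction. Genes were called at an adjusted p (Benjamini-Hochberg, all genes tested) of at most 0.01, as in the study. DESeq2 1.42.0 and limma 3.58.1 (log2 of RPKM plus 0.1 or 1) were alternatives, with other scalings, no filter, a threshold of 0.05, all 16 libraries, 1 fit over 4 groups and each library left out. Log2 CPM had a prior count of 2. Ratios and correlations used two-sided exact permutation tests (scipy 1.17.1), and intervals are exact binomial at 95%. The procedure was tested on simulated data. Depth, 25116179 to 29847222 counts, makes 3 counts the limit that a count of 0 allows.

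The members and gene lists were chosen with earlier results of these data known. Named genes are the members, *Mtm1*, genes within 200 kb of *Actc1*, the called genes of each of 14 lists in KO_TAM against WT_TAM and KO against WT (in principle up to 4 by lowest p, and *Myh8*, *Atp2a2*, *Tnni1*, *Srf* and *Cyr61* beyond that, chosen after their values were seen, as were *Tmsb10*, *Pfn2* and *Mkl1* in KO_TAM against WT_TAM, and *Ckm*, *Myh4*, *Myh1* and *Mb*), and the genes most and least like *Actc1*. *Pax7*, *Myf5* and *Myod1*, the tested but uncalled genes of the precursor list, were also named after their values were seen. Promoters came from RefSeq (6 of the 7 members matched) and coding bases from the GRCm38 transcripts. Protein sequences were not used here.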

Additional observations from a re-analysis of the deposited data

Results flagged for a closer look

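In the library labelled WT replicate 1, *Actb* made up 77.8% of *Actb* plus *Actg1* RPKM, against 65.7% to 67.8% in WT replicates 2 to 4, and lay far from them by Dixon's test. This library also had 74 counts of *Mtm1*, was left out by the study and is not in the main set. In all, 44 groups of values were checked in this way, and chance alone singles out about 1 in 20.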

How the results depend on the processing

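The calls of *C130080G10Rik* and *A530058N18Rik* in KO_TAM against WT_TAM are limited by few counts in the knockout libraries, 2 to 55 and 0 to 10 there. DESeq2 called 5 of the 7 genes in KO against WT, 4 in KO_TAM against WT_TAM and 3 in WT_TAM against WT, where edgeR called 3, 2 and 0. Over all genes DESeq2 called 1678 of 14740, 1995 of 14563 and 214 of 14544. The member counts of KO against WT are a description, since that comparison selected the members, and WT_TAM against WT reuses its WT libraries. At a threshold of 0.05, edgeR called 4 in KO_TAM against WT_TAM and 1 in WT_TAM against WT (2476 and 80 of all genes), and without the filter on low counts it called 1 in the latter. Leaving out each library gave 2 to 3 called in KO against WT and 1 to 3 in KO_TAM against WT_TAM. No paired analysis was made, because the sample labels used here give no litter or pairing. The study states that its RNA-seq samples came from littermates, and litter was not modeled here.

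Correlations with *Actc1* missed 0.05 for *C130080G10Rik* in knockout mice without the 2 farthest libraries (0.715). They also missed it for *A530058N18Rik* in wild-type mice with 16 libraries (0.701), without the 2 farthest (0.743) and within groups (0.856), and in knockout mice without the 2 farthest (0.817). Leaving out each library in turn, all 28 correlations kept their side of 0.05. With medians in place of means, the differences of KO_TAM from WT_TAM were -2.29 and -0.418 for the ratios of *C130080G10Rik* and *A530058N18Rik* to *Actc1* and -4.75 for the percent of *Actc1* (exact permutation p = 0.0571 for each). The ratio of *C130080G10Rik* in KO_TAM minus KO turned to 0.0821 as log2 and 0.0930 with 16 libraries (-0.157 to 0.118 when each library was left out), and the *Actb* percent in WT_TAM minus WT ranged from -1.44 to 0.0322.

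None of the fold changes that turned sign was called in the main setting. Scaled by library size alone, *Actg1* was at 0.16 in KO against WT, 0.24 in KO_TAM against WT_TAM and -0.0085 in KO_TAM against KO, *Acta2* at 0.0211 in KO_TAM against WT_TAM, and *Acta1* at -0.0156 in the interaction. With limma (pseudocounts 0.1 and 1) *Actg1* was at 0.13 and 0.13 in KO against WT and 0.27 and 0.26 in KO_TAM against WT_TAM, *Acta2* at 0.0220 and 0.0217 there, and *Acta1* at -0.0257 and -0.0257 in the interaction. With 16 libraries *C130080G10Rik* was at 0.17 in KO_TAM against KO. Leaving out each library, *Actg1* ranged from -0.16 to 0.11 in KO_TAM against WT_TAM. In WT_TAM against WT, *Actb* ranged from -0.23 to 0.0013 and *Actg1* from -0.23 to 0.0334. In KO_TAM against KO the ranges were -0.0127 to 0.23 for *Acta1*, -0.0230 to 0.14 for *Acta2*, -1.07 to 0.0605 for *Actc1*, -0.10 to 0.19 for *Actg1* and -1.19 to 0.36 for *C130080G10Rik*. In the interaction they were -0.0721 to 0.18 for *Acta1*, -0.20 to 0.11 for *Actb*, -0.0032 to 0.29 for *Actg1*, -0.0403 to 1.09 for *Actc1* and -0.14 to 1.44 for *A530058N18Rik*. The cause of these changes was not tested. The within-group correlations and the ratios with 16 libraries were added after the data were seen. Of all fold changes, these included, 257 of 287 with a library left out and 263 of 292 under other settings kept their direction and their side of the threshold.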
